A study of Mus musculus with 4 samples.

Results

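The histone genes were followed across 4 mouse embryonic stem (ES) cell samples on Illumina bead arrays. Histone probes were those whose target name begins with HIST1, HIST2, HIST3, HIST4, H2AF, H3F or H1F, which gave 112 of the 45281 probes and 74 of the 31490 target names. The clustered, replication-dependent genes (names in HIST) made up 63 of these names with 92 probes, and the variant genes made up 11 names with 20 probes. The files' older names were matched to current symbols, and both are given where a gene is first described.

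Histones package DNA into nucleosomes, each a core of H2A, H2B, H3 and H4 sealed by a linker histone, H1. The replication-dependent genes lie in clusters, are transcribed mainly in S phase, and supply the bulk of new histone when DNA is copied. Their messenger RNAs normally end in a stem-loop bound by SLBP rather than in a poly(A) tail. Most variant genes lie outside the clusters, are transcribed throughout the cell cycle with poly(A) tails, and encode histones placed in chromatin by dedicated chaperones. ES cells divide quickly and spend much of their cycle in S phase.

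In the 2i-derived group were 2i-RFP+ and 2i-RFP-. Each was of strain C57/B6, at passage 5 and measured on 2 arrays, and the labels say no more of the RFP mark. 2i is a medium with inhibitors of MEK and GSK3. The standard-derived group held AFF204#21, a C57/B6 line at passage 11, and R1, a 129 line at passage 26, each measured on 1 array. After derivation all 4 were kept without 2i, on mouse embryonic fibroblast feeders. Strain, passage and derivation cannot be told apart in R1, nor passage and derivation in AFF204#21. The array names of 2i-RFP+ and 2i-RFP- share a stem, so they may come from the same derivation, and nothing in the labels says that any samples were separate cultures of 1 line. The p-values therefore measure the spread between these 4 samples.

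Values are log2 intensities after background correction and quantile normalization, with the arrays of a sample averaged. A probe was kept where its detection p lay under 0.05 in at least 2 samples, and the brightest detected probe stood for its gene. The filter kept 54 of the 63 clustered names and all but H1foo, an oocyte linker histone, and H2afy3 among the 11 variant names. The clustered names that did not pass were Hist1h1e, Hist1h1t, Hist1h2aa, Hist1h2ac, Hist3h2a, Hist1h2ba, Hist1h2bg, Hist3h2ba and Hist3h2bb. Hist1h1t, Hist1h2aa and Hist1h2ba encode testis histones. Over all genes 14572 were tested. Between 19143 and 19865 probes were detected per array, and median intensities ran from 59.3 to 63.2. All 10 ES cell markers were detected, among them Pou5f1 and Nanog, while Zfp42 read 12.83 in R1 and 9.29 to 9.67 elsewhere. Of 14 fibroblast markers 13 were detected (Postn was not). Their mean log2 intensity was 8.69 in 2i-RFP+, 8.51 in 2i-RFP-, 8.72 in AFF204#21 and 9.04 in R1. R1 read highest, 2 of the 13 had a 2i-derived mean above the standard-derived mean, and the part of feeder RNA in the values below was not tested.

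The clustered genes read higher in the 2i-derived samples, and the variants did not share that direction. The log2 difference, 2i-derived minus standard-derived, lay above 0 for 45 of 54 clustered genes with a median of 0.60, and for 3 of 9 variants with a median of -0.19. Over all 14572 genes the median was -0.02, with 6898 above 0. In 36 of the 54 clustered genes both 2i-derived samples read above both standard-derived samples, and in 5 both read below. Such separation in either direction held for 55.7% of all genes (26.1% higher, 29.6% lower). No histone gene passed an adjusted p of 0.05 in limma, a threshold that 0.103% of all genes passed as higher and 0.0618% as lower. Under the alternative settings that kept all 4 samples and 1 value per gene, 0 to 3 histone genes did. With every detected probe fitted on its own, 4 histone probes did. At an adjusted p under 0.10, 11 clustered genes and 1 variant were higher and 1 variant was lower, against 2.55% and 1.7% of all genes. At an unadjusted p under 0.05 there were 33 of 54 clustered genes and 5 of 9 variants, against 20.9% of all genes. The count at 0.10 rests on all 4 samples. Without either 2i-derived sample an adjusted p under 0.10 was not reached by histone genes or by any other gene. Histone genes did not reach it with both 2i-derived samples, which may share a derivation, counted as 1. The clustered median was 0.56 without 2i-RFP+, 0.64 without 2i-RFP- and 0.60 with both counted as 1. Without AFF204#21 or without R1, when the spread comes from the 2i-derived samples alone, 34 and 42 of the 63 histone genes were higher at 0.10, against 24.3% and 21.6% of all genes, and 9 and 8 lower, against 28.1% and 22.6%.

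**Figure D1:**
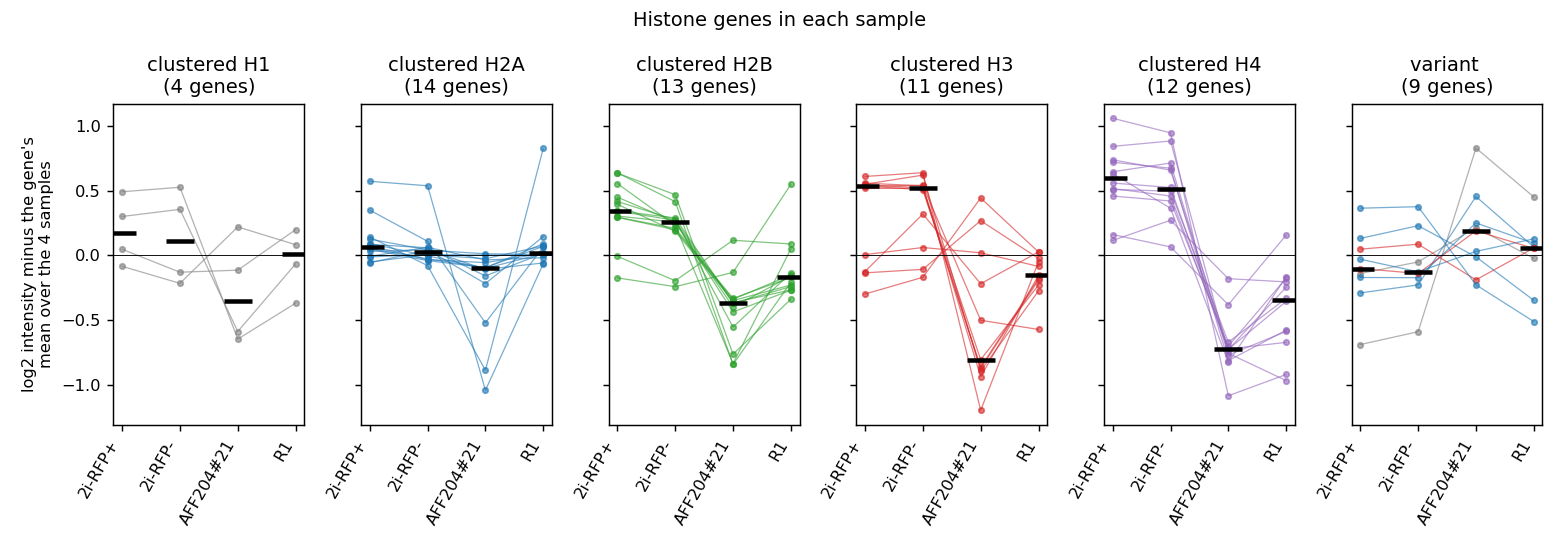
Each line is a detected histone gene, and the vertical axis is its log2 intensity in a sample minus its own mean over the 4 samples, with class medians as black bars. The median clustered H4 gene sits at 0.60 in 2i-RFP+ and 0.51 in 2i-RFP-, and at -0.73 in AFF204#21 and -0.34 in R1, whereas clustered H2A medians stay between -0.10 and 0.06.

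The labelling kit named in the labels amplifies RNA by reverse transcription, which in kits of this kind is primed on poly(A) tails. Replication-dependent histone RNA mostly lacks such tails, so for the clustered genes a difference in the RNA and a difference in its tailed share cannot be told apart here. In bulk RNA, fewer cells in S phase and less histone RNA per cell cannot be told apart either.

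The H4 genes, which encode the core histone that pairs with H3, held the largest single differences among the clustered genes. All 12 detected H4 genes read higher in the 2i-derived samples, with a median log2 difference of 1.05. In limma 7 of them had an adjusted p under 0.10, against 2.55% of all genes as higher. H4c3 (HIST1H4C) read 7.54 in 2i-RFP+, 7.43 in 2i-RFP-, 5.40 in AFF204#21 and 5.56 in R1. Both 2i-derived values stood well clear of both standard-derived values, with a log2 difference of 2.01 ± 0.15 (SE, n = 2 against 2), or 4.03-fold, and an adjusted p of 0.0515 in limma. H4c17 (HIST1H4M) read 9.64 and 9.68 in 2i-RFP+ and 2i-RFP-, 8.04 in AFF204#21 and 7.83 in R1. Here R1 was the lowest sample, and the difference was 1.73 ± 0.14 (SE) with an adjusted p of 0.0529. Other probes of H4c17 differed by 1.72 and 0.81, and on the last of these AFF204#21 was the lowest sample. H4c9 (HIST1H4I) read 10.10 and 10.02 against 8.64 in AFF204#21 and 8.69 in R1. Its standard-derived values lay nearly together, and the difference was 1.40 ± 0.11 (SE) with an adjusted p of 0.0529. H4c6 (HIST1H4F) read 9.90 and 9.96 against 8.48 and 8.66, a difference of 1.36 ± 0.13 (SE) with an adjusted p of 0.0601. The groups did not overlap for any of these 4 genes. These adjusted p-values lie so near the threshold that a stricter or absent detection filter carries up to 3 of them past it.

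The other 8 H4 genes differed by 0.23 to 1.39. H4c2 (1.39), H4c11 (1.08) and H4c1 (1.01) had adjusted p-values of 0.0648, 0.0813 and 0.0766. H4c8 (HIST1H4H) had the smallest difference, 0.23, and was the H4 gene whose groups overlapped, with 9.35 and 9.25 in the 2i-derived samples, 8.80 in AFF204#21 and 9.34 in R1. H4f16 (HIST4H4), which lies on chromosome 6 outside the main clusters, read 6.28 and 6.01 in 2i-RFP+ and 2i-RFP-, 4.82 in AFF204#21 and 5.48 in R1, on a probe not detected in AFF204#21. Its second probe was detected in neither standard-derived sample and passed the filter through the 2i-derived samples alone. With the standard-derived arrays set no lower than their dimmest detected probe, the 2i-derived level there was 2.14-fold higher. That bound leaves out the spread, and the direction on this probe is not counted as support. Apart from H4f16, every H4 gene with several detected probes had the same direction on all of them.

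The sequence before the transcription start is shown for the 3 H4 genes with the smallest p, for the H4 gene with the smallest difference, and for contrast H2bc7, an H2B gene, and H1f0, the variant with the largest difference. The 160 bases before the start come from RefSeq on GRCm38.p6, written 5′ to 3′ on the gene's strand. Capitals mark the motifs searched on both strands, CCAAT (the box bound by NF-Y), GTCCGC (part of an H4 promoter element bound by HINFP), TTTGCAT (part of the octamer bound by OCT1) and TATAA, and overlapping matches run together.
H4c3 (HIST1H4C), chr13:23698459-23698618, minus strand: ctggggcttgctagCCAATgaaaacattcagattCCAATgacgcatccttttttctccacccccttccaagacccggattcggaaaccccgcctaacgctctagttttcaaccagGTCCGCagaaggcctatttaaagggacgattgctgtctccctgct
H4c17 (HIST1H4M), chr13:21811586-21811745, plus strand: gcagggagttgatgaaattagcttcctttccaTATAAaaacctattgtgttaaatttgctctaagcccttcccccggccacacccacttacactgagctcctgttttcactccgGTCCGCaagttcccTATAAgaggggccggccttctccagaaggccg
H4c9 (HIST1H4I), chr13:22041363-22041522, minus strand: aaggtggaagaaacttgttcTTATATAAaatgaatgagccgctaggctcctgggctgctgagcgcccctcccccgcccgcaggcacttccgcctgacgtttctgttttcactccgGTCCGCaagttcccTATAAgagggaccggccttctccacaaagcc
H4c8 (HIST1H4H), chr13:23530884-23531043, plus strand: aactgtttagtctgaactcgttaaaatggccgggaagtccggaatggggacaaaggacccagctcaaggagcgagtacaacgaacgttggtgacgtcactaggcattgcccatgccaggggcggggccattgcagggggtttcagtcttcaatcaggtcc
H2bc7 (HIST1H2BF), chr13:23574208-23574367, minus strand: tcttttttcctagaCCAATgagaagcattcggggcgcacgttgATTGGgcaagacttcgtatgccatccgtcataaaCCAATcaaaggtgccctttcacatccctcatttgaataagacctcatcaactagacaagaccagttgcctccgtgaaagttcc
H1f0 (H1F0), chr15:79028052-79028211, plus strand: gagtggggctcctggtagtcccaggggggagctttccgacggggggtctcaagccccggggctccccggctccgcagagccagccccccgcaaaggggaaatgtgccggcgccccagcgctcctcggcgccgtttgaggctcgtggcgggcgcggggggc
H4c3, H4c17 and H4c9 carry GTCCGC at 45, 46 and 45 bases before the start, while the printed stretches of H4c8 and H1f0 hold none of the motifs. H4c8 does carry TATAA in the longer windows counted below.

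Promoter windows of 300 bases, 250 before and 50 after the start, were found for 57 of the 63 tested histone genes. A gene was counted where any of its windows held the motif. GTCCGC occurred in 8 of 11 H4 genes, always on the gene's strand, against 10.7% of all 27025 genes with a window. It also occurred in 6 of 14 H2A, 3 of 11 H2B, 1 of 9 H3, 0 of 4 clustered H1 and 3 of 8 variant genes. It was absent from H4c8, H4c1 and H4c2, which differed by 0.23, 1.01 and 1.39, and no motif was tested against the differences. CCAAT occurred in 9 of 9 H3, 11 of 11 H2B, 14 of 14 H2A and 4 of 4 clustered H1 genes. It occurred in 3 of 11 H4 genes, against 41.1% of all genes with a window. TTTGCAT occurred in 5 of 11 H2B and 4 of 14 H2A genes, against 5.2% of all genes. TATAA occurred in 38 of the 49 clustered genes and 1 of the 8 variant genes, against 28.0% of all genes. These are matches of letters and not measured binding.

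The clustered H3 genes, whose protein carries many of the marks read on chromatin, divided into 7 genes with differences of 1.04 to 1.25 and 4 genes between -0.47 and 0.19. The class median was 1.04, and 9 of 11 genes lay above 0. In the deposited log2 table, which averages all probes of a target, the median was 0.55. H3c7 (HIST1H3F) read 7.02 in 2i-RFP+ and 7.03 in 2i-RFP-, against 5.98 in AFF204#21 and 5.91 in R1. The samples of each group lay close together, and the difference was 1.08 ± 0.14 (SE) with an adjusted p of 0.0671. H3c11 (HIST1H3I) read 9.24 and 9.31 against 7.80 in AFF204#21 and 8.42 in R1, a difference of 1.17 ± 0.24 (SE, adjusted p 0.111). H3c1 (HIST1H3A) read 10.34 in both 2i-derived samples, 9.02 in AFF204#21 and 9.59 in R1, a difference of 1.04 ± 0.22 (SE, adjusted p 0.114). H3c4 (HIST1H3D) read 11.24 and 11.22 against 9.82 and 10.51, a difference of 1.07 ± 0.25 (SE, adjusted p 0.129). In the last 3 genes R1 lay between AFF204#21 and the 2i-derived samples, and the groups did not overlap. The largest difference, 1.25 in H3c3 (HIST1H3C), came with an adjusted p of 0.199 and with AFF204#21 (5.96) and R1 (7.11) far apart.

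The H3 genes of chromosome 3 read the other way. H3c14 (HIST2H3C1) differed by -0.47 and H3c13 (HIST2H3B) by -0.24, with adjusted p-values of 0.214 and 0.327, and both standard-derived samples read above both 2i-derived samples. A second, dimmer probe of H3c14 differed by 1.05, so the direction of this gene depends on the probe. H3c10 (HIST1H3H) likewise differed by 0.07 on its brightest probe and 0.93 on the other. The probe sequences were not used here, and whether a probe tells near-identical histone genes apart was not tested.

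Of 13 detected H2B genes, 11 read higher in both 2i-derived samples than in both standard-derived samples, where 26.1% of all genes did. These 11 differed by 0.49 to 1.11, and the class median was 0.61. H2bc21 (HIST2H2BE), on chromosome 3, read 10.49 in 2i-RFP+, 10.32 in 2i-RFP-, 9.09 in AFF204#21 and 9.51 in R1. It had the largest difference of the class, 1.11 ± 0.18 (SE), with an adjusted p of 0.0866. H2bc7 (HIST1H2BF) read 10.79 and 10.72 against 10.08 and 10.21, a difference of 0.61 ± 0.11 (SE, adjusted p 0.0909). H2bc9 (HIST1H2BH) read 10.25 and 10.06 against 9.36 and 9.53, a difference of 0.71 ± 0.13 (SE, adjusted p 0.1003). H2bc13 (HIST1H2BL) read 9.36 and 9.30 against 8.65 and 8.75, a difference of 0.63 ± 0.12 (SE, adjusted p 0.103). In each of these genes AFF204#21 was the lowest sample and R1 the next. The 2 exceptions were H2bc4 (HIST1H2BC) and H2bc6 (HIST1H2BE), with differences of -0.20 and -0.42 and standard-derived samples above the others.

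The H2A genes showed little difference on the brightest probes. The class median was 0.06, with 11 of 14 genes above 0, and the median was -0.001 against R1 alone. H2ac4 (HIST1H2AB) was the H2A gene with the largest difference, with 8.31 and 8.28 in 2i-RFP+ and 2i-RFP-, 6.70 in AFF204#21 and 7.67 in R1. The standard-derived samples were far apart but both lower, and the difference was 1.11 ± 0.35 (SE, adjusted p 0.190). H2ac15 (HIST1H2AK) read 14.39 and 14.31 against 14.16 and 14.21, a difference of 0.17 ± 0.06 (SE, adjusted p 0.238). H2ac12 (HIST1H2AH) read 14.17 and 14.14 against 13.93 and 14.10, a difference of 0.14 ± 0.08 (SE, adjusted p 0.384). Both sets of values are separated by very little. H2ac18 (HIST2H2AA1) read 9.15 and 8.91 against 8.28 and 8.86, a difference of 0.46 ± 0.24 (SE, adjusted p 0.358), which became -0.02 with the mean of its detected probes. H2ac8 (HIST1H2AE) differed by 0.06, and its standard-derived samples lay on opposite sides, 6.23 in AFF204#21 and 7.95 in R1, with 7.26 and 7.04 in the 2i-derived samples.

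H2A probes were also the brightest of the histone probes. Of 22 detected H2A probes 13 had a mean intensity over 10000, and no probe of another clustered class did. Those 13 differed by -0.05 to 0.17 with a median of 0.04, and the 9 dimmer H2A probes had a median of 0.34. The probe of H2ac23 (HIST1H2AO), at 57558, was the 10th brightest on the arrays, on which the largest intensity was 63723. Over all 589 detected probes above 10000 the median difference was -0.01. Whether such bright probes can still register a difference was not tested. Without the genes represented by them, a choice made after seeing the data, the median of the clustered genes was 0.75.

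**Figure D2:**
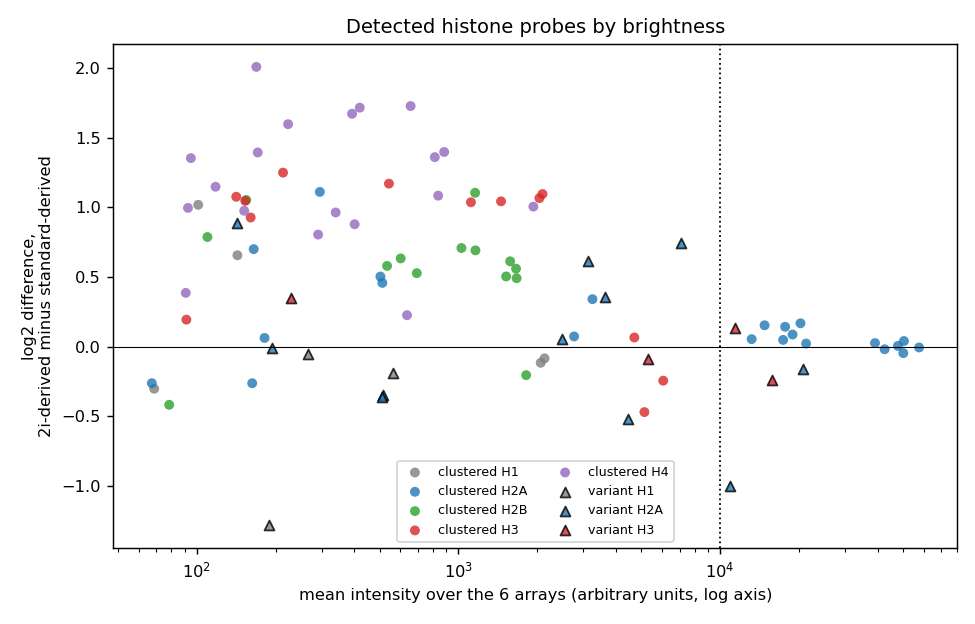
Detected histone probes are placed by mean intensity over the 6 arrays (horizontal, log axis) and log2 difference, 2i-derived minus standard-derived (vertical), with circles for clustered and triangles for variant genes. The 13 clustered H2A probes right of the dotted line at 10000 lie between -0.05 and 0.17, and the H4 probes all lie above 0.

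Among the linker histones of the clusters, 4 of 6 names were detected and their differences went both ways. H1f1 (HIST1H1A) read 6.33 in 2i-RFP+, 6.36 in 2i-RFP-, 5.19 in AFF204#21 and 5.47 in R1. The groups were well separated, by 1.02 ± 0.16 (SE, adjusted p 0.0846). H1f5 (HIST1H1B) read 6.93 and 6.98 against 6.04 and 6.56, a difference of 0.66 ± 0.22 (SE, adjusted p 0.212). H1f3 (HIST1H1D) read 5.15 and 5.01 against 5.45 and 5.31, a difference of -0.30 ± 0.14 (SE, adjusted p 0.305). It passed the filter through the standard-derived samples alone and was detected on none of the 2i-derived arrays. With those arrays set no lower than their dimmest detected probe, the standard-derived level was 1.13-fold higher. That bound leaves out the spread, and the values lie near the detection limit. H1f2 (HIST1H1C) read 11.09 and 10.91 against 10.93 and 11.24, and its groups overlapped, with a difference of -0.08 ± 0.15 (SE, adjusted p 0.781).

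**Figure D3:**
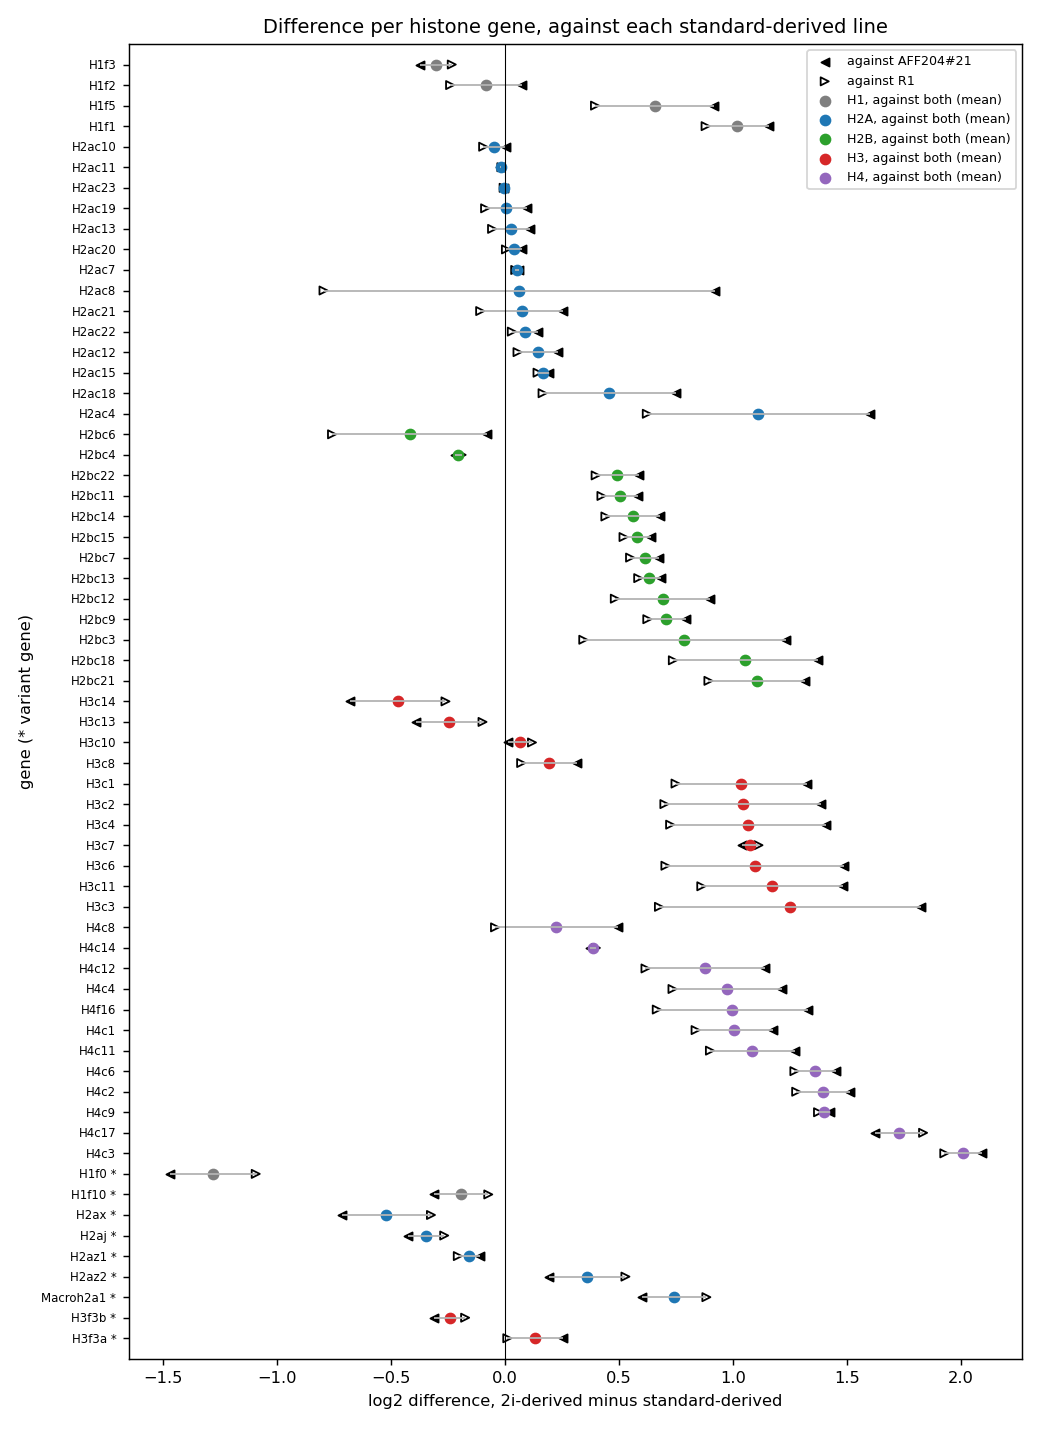
Each row is a detected histone gene, with a coloured point at the log2 difference against the mean of both standard-derived lines and triangles for AFF204#21 (filled) and R1 (open), which share the 2i-derived samples. Clustered H4 points run from 0.23 to 2.01, H3 and H2B points lie on both sides of 0, and H1f0 lies furthest to the left at -1.28.

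Genes of the clusters sit together on chromosome 13, where 44 of the 54 tested genes lie in 2 stretches. Their median difference was 0.65, with 37 above 0, and the median of the 339 other tested genes of chromosome 13 was -0.05. The 10 clustered genes elsewhere, on chromosomes 3 and 6, had a median of 0.23. The first stretch of 19 genes had a median of 0.56 and the second of 25 genes 0.98, and the 4 tested genes of other kinds that lie among the histone genes had a median of -0.01. On the probes used, neighbours of different classes differed even where their starts were close. In 6 pairs of H2A and H2B genes that point away from each other with starts 164 to 249 bases apart, the H2B genes differed by 0.49 to 0.69 and their H2A partners by -0.02 to 0.17. All 6 partners were represented by probes with a mean intensity over 10000. A second, dimmer probe of the partner H2ac11 (HIST1H2AG) differed by 0.34, beside -0.02 on the probe used. Second probes of H2ac12 and H2ac13 (HIST1H2AI) differed by 0.15 and 0.05.

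**Figure D4:**
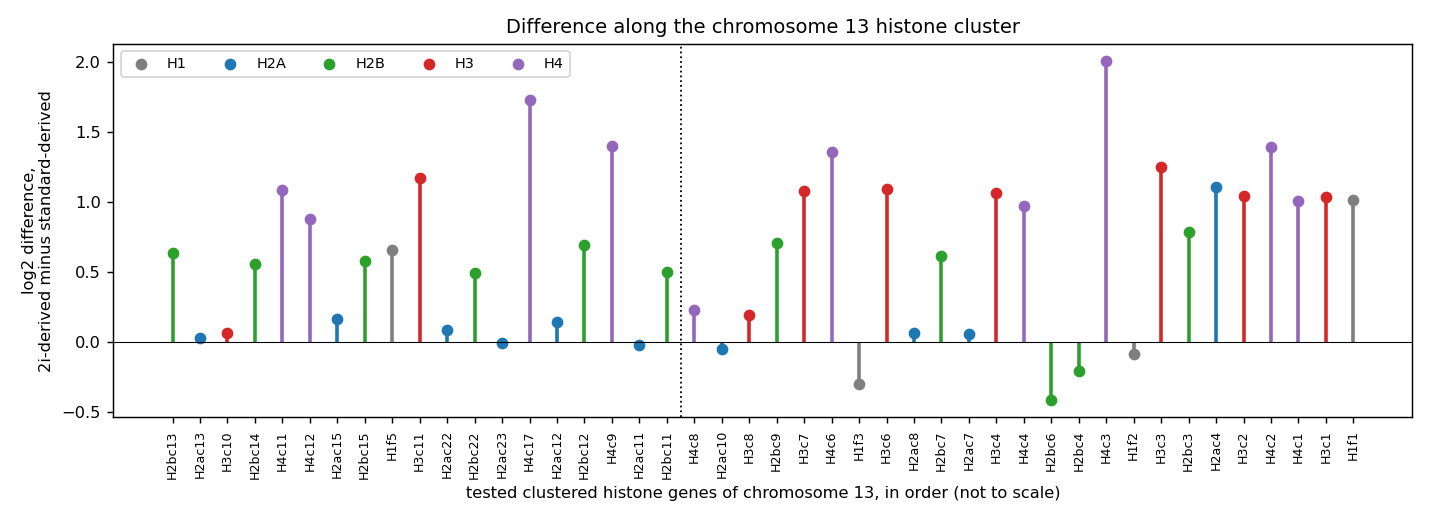
The tested clustered histone genes of chromosome 13 are shown in chromosomal order but not to scale, with stems for the log2 difference, 2i-derived minus standard-derived, and a dotted line between the 2 stretches. An H4 gene stands highest in each stretch (H4c17 at 1.73 and H4c3 at 2.01), while H2A genes lie between -0.05 and 0.17 apart from H2ac4 at 1.11.

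The differences were not of the same size against each standard-derived line. Both comparisons share the 2i-derived samples and have 1 line on the other side, so no test was made. The median of the clustered genes was 0.72 against AFF204#21, the line of the same strain, and 0.43 against R1. At least 2-fold higher than in AFF204#21 were 22 of 54 clustered genes, of which 10 encode H4, 7 H3, 3 H2B, 1 H2A and 1 H1, against 2.27% of all genes. At least 2-fold higher than in R1 were 6, of which 5 encode H4 and 1 H3, against 4.78% of all genes. AFF204#21 was the lowest of the 4 samples for 41 of 54 clustered genes and read below R1 for 44, where 52.8% of all genes did. H2ac8 and H3c3 were at least 2-fold lower in AFF204#21 than in R1, against 2.22% of all genes, and no histone gene was 2-fold higher there, against 3.49%. The root mean square log2 distance over the clustered genes was 1.01 and 0.961 from 2i-RFP+ and 2i-RFP- to AFF204#21, 0.711 and 0.686 to R1, and 0.486 between AFF204#21 and R1. Over all genes the same distances were 0.474 and 0.477, 0.636 and 0.644, and 0.553, so AFF204#21 was the nearer line over all genes and R1 the nearer over the clustered histone genes. These distances are descriptions with 1 sample behind each point.

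Between 2i-RFP+ and 2i-RFP- the histone genes were close. No histone gene was 2-fold apart, where 0.0274% of all genes were, and the median difference was 0.05 for clustered and -0.04 for variant genes. The root mean square distance was 0.132 over the clustered genes, beside 0.228 and 0.125 between repeat arrays of 2i-RFP+ and of 2i-RFP-. The largest was H3c8 (HIST1H3G), at 5.64 in 2i-RFP+ and 6.09 in 2i-RFP-, on a probe detected on 3 of the 4 arrays. Differences between single arrays of these samples ran from -1.26 to 0.37, so its sign depends on the array. With 1 sample each, no test was made.

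The 9 detected variant genes went in both directions. H1f0 (H1F0), a linker histone known to accumulate in resting and differentiated cells, read 6.67 in 2i-RFP+, 6.77 in 2i-RFP-, 8.19 in AFF204#21 and 7.81 in R1. Both 2i-derived samples were far lower, by -1.28 ± 0.19 on the log2 scale (SE, adjusted p 0.0798), or 2.43-fold. It was at least 2-fold lower than in each standard-derived line, against 2.02% of all genes for AFF204#21 and 3.12% for R1. H1f10 (H1FX), a linker variant of somatic cells, read 8.93 and 9.02 against 9.29 and 9.05, a difference of -0.19 ± 0.14 (SE, adjusted p 0.495), and 2i-RFP- lay next to R1.

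Macroh2a1 (H2AFY) encodes macroH2A1, an H2A variant with a large extra domain, enriched on the inactive X chromosome. It read 12.98 in 2i-RFP+, 12.99 in 2i-RFP-, 12.38 in AFF204#21 and 12.10 in R1. The 2i-derived samples were higher, by 0.74 ± 0.12 (SE, adjusted p 0.0824). A second probe differed by 0.62, and the remaining, dim probe by -0.01. H2ax (H2AFX), phosphorylated next to DNA breaks, read 11.87 and 11.93 against 12.62 and 12.23, a difference of -0.52 ± 0.15 (SE, adjusted p 0.170), without overlap. H2aj (H2AFJ) read 8.78 in both 2i-derived samples, 9.21 in AFF204#21 and 9.05 in R1, a difference of -0.34 ± 0.13 (SE, adjusted p 0.236). With the mean of its 3 probes this became 0.06, and the dimmest probe, which was not detected in R1, differed by 0.88.

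H2A.Z, found at promoters and exchanged by the SRCAP and EP400 complexes, is encoded by H2az1 and H2az2. H2az1 (H2AFZ) read 14.33 and 14.24 against 14.39 and 14.49, a difference of -0.16 ± 0.07 (SE, adjusted p 0.295). H2az2 (H2AFV) read 11.87 and 11.97 against 11.73 and 11.39, a difference of 0.36 ± 0.14 (SE, adjusted p 0.249). On these probes the groups of both genes were separated, in opposite directions. A second, dimmer probe of H2az2 read 11.19 and 11.36 against 11.17 and 11.28. Its difference was 0.05 and its groups overlapped, so the separation of H2az2 rests on the probe used. The second probe of H2az1 was also lower in both 2i-derived samples. H3f3a and H3f3b encode the same protein, the H3 variant placed outside S phase by HIRA and by DAXX with ATRX. H3f3b (H3F3B) read 13.88 and 13.84 against 14.17 and 14.04, a difference of -0.24 ± 0.07 (SE, adjusted p 0.179), without overlap. H3f3a (H3F3A) read 13.49 and 13.53 against 13.25 and 13.50, a difference of 0.13 ± 0.10 (SE, adjusted p 0.509), and was the variant whose groups overlapped. Outside the naming rule, Cenpa, the centromeric H3 variant, read 14.62 and 14.61 against 14.59 and 14.26 (difference 0.20, adjusted p 0.419).

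Genes that act on histones did not share the direction of the clustered genes. Of 29 genes of histone mRNA transcription and processing 23 were tested, 11 above 0 and 12 below, with a median of -0.01. Slbp, whose protein binds the stem-loop, has 1 probe, which was detected on 0 of the 6 arrays. Npat, the coactivator of the histone clusters, read 6.55 and 6.89 against 7.31 and 6.84 (difference -0.36, adjusted p 0.449), with overlapping groups. At an adjusted p under 0.10, Nfyb, a subunit of the CCAAT-binding NF-Y, was higher (0.51, adjusted p 0.0824), as was Cstf2, a subunit of the cleavage stimulation factor (0.66, adjusted p 0.0880). Ccne1, the cyclin E that activates CDK2 at the start of S phase, was lower (-0.63, adjusted p 0.0846).

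Of 37 histone chaperones and exchange factors 34 were tested, 17 above 0 and 17 below, with a median of -0.01. Atrx read 6.83 and 6.86 against 5.76 and 5.18 (difference 1.37, adjusted p 0.0914), and Rbbp7, a histone-binding subunit of several chromatin complexes, read 12.70 and 12.57 against 11.87 and 11.52 (difference 0.94, adjusted p 0.0812). Both were higher in both 2i-derived samples, and both lie on the X chromosome, as does Cstf2. Dek, a chromatin protein that also acts as an H3 chaperone, was the next by p (0.51, adjusted p 0.118). Hira, the chaperone of variant H3, differed by 0.28 (adjusted p 0.477), Daxx by -0.16 (0.646) and Asf1b, which hands H3 and H4 to assembly factors, by -0.33 (0.489). Of 37 genes of S phase and DNA replication 34 were tested, 13 above 0 and 21 below, with a median of -0.09. Rrm2, the small subunit of ribonucleotide reductase, was higher (0.62, adjusted p 0.0814). Tk1, thymidine kinase, differed by -0.52 (adjusted p 0.107), and Mcm5, a subunit of the replicative helicase, by -0.27 (adjusted p 0.143). The part of cycle phase in the histone values was not tested beyond these genes.

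**Figure D5:**
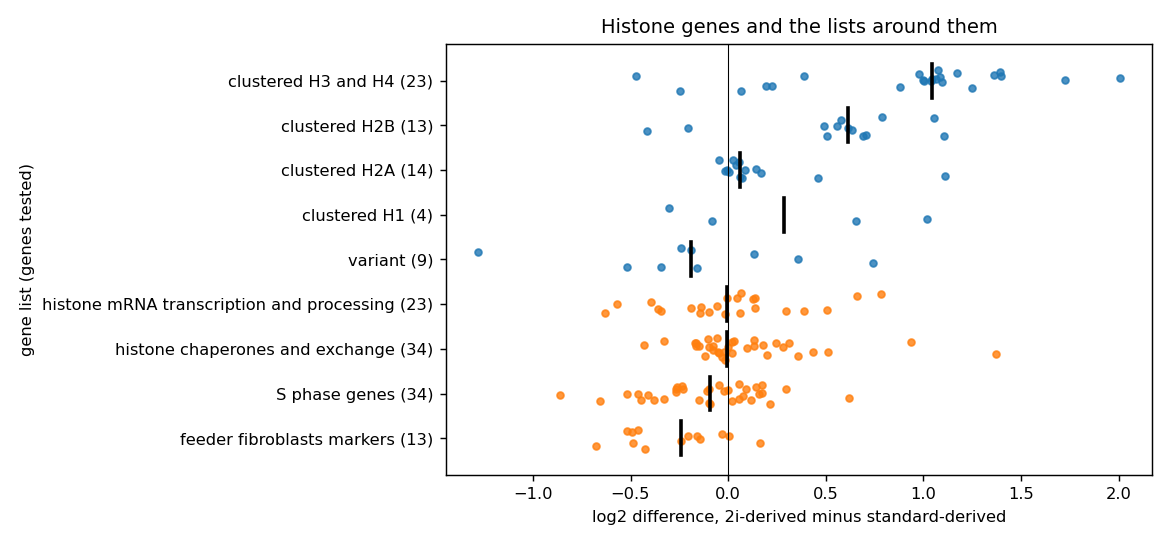
Points are tested genes of each list at their log2 difference, 2i-derived minus standard-derived, with the median as a bar and histone lists in blue. Clustered H3 and H4 have a median of 1.04 over 23 genes, while the lists of histone processing, chaperone and S phase genes have medians between -0.09 and -0.01.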

How the data were processed

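Total RNA was labelled with biotin and hybridised to 6 MouseWG-6 bead arrays (protocols in the labels, array type in the file headers). The deposited bead intensity is a probe's mean signal on a linear scale and, per the file headers, left GenomeStudio 1.0.6 without normalization. A detection score between 0 and 1, deposited beside each intensity, rises with the signal, and 1 minus this score served as detection p. Histone values rest on 20 to 78 beads per probe and array, the deposited bead number. The authors' deposited log2 table was an alternative. How it was made is not stated in those sources, and its values equal averaged quantile-normalized log2 intensities (Pearson r of 1 in each sample, across targets, which are not independent replicates). Its medians were 5.91, 5.91, 5.91 and 5.92, and its genome build is not stated either.

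Intensities were background corrected and quantile normalized with neqc (limma 3.58.1, R 4.3.3, offset 16), and arrays of a sample were averaged. Probes needed a mean detection p under 0.05 in at least 2 of 4 samples, and the brightest detected probe stood for a gene. The groups were compared with limma (lmFit, eBayes with intensity trend, two-sided, Benjamini-Hochberg over 14572 genes), called at an adjusted p under 0.05. Strain and passage were not entered. In 20 simulated data sets for this comparison, calls were made for 0.025% of the unchanged genes. Calls were made for 25% of genes shifted by 1 log2 unit, 65.8% at 2, 81.7% at 3 and 88.2% at 4. The simulated samples were independent, with the same spread in both groups. In the data the median SD over all genes was 0.063 in the 2i-derived and 0.172 in the standard-derived samples. The 2i-derived samples may also share a derivation, so these shares need not hold for the data. The small number of arrays limits the precision.

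Of 31490 target names, 13430 matched a current RefSeq symbol, 5596 matched a synonym, 12439 stayed as in the file, and 25 that a spreadsheet had made dates or numbers were omitted. Of the histone names, 70 matched by synonym, 3 by symbol, and 1 kept the file's name. Coordinates and promoter windows are RefSeq's on GRCm38.p6. List genes were matched by current symbol or by the file's name. Named with all sample values were each detected variant gene and, per clustered class, up to 4 genes with the smallest p. From the other lists, up to 3 genes with the smallest p and Slbp, Npat, Hira, Daxx, Atrx and Asf1b were named. Further members were named as extremes or exceptions after their values were seen. The members and lists were chosen with earlier results of these data known, and the motifs after some of these promoters had been read, so counts and medians carry no list test. Alternatives covered background correction, scaling, detection filter, probe rule, the deposited table, eBayes options, both 2i-derived samples as 1, and each sample left out.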

Additional observations from a re-analysis of the deposited data

How the results depend on the processing

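No paired analysis was possible because the labels give no replicate numbers. In the setting with every detected probe, the counts and medians given below are over probes and not genes. A gene can count there more than once. No histone gene passed an adjusted p of 0.05 as higher, but 2 did without a detection filter, 3 with a detection p under 0.01, 2 with the mean of detected probes, 4 with every detected probe, and 0 to 39 with 1 sample left out (32 without AFF204#21, 39 without R1). As lower, 0 to 9 passed with 1 sample left out. At 0.10 the 12 higher genes became 20 with every detected probe, 0 with both 2i-derived samples as 1, and 0 to 42 with 1 sample left out, and the 1 lower gene became 0 and 0 to 9 in the last 2 settings. The 24 genes called over all genes became 0 without background correction, with median scaling, with robust eBayes or with both 2i-derived samples as 1, 37 with a detection p under 0.01, 48 with every detected probe, 12 with the deposited log2 table, 4 without the trend, and 0 to 6596 with 1 sample left out. Leaving out AFF204#21 or R1 takes the spread from the 2i-derived samples, and the remaining line is assumed to vary like them. The upper ends of these ranges of counts, including the range over all genes, come from these settings. The histone counts there rose along with the calls over all genes and are not read as a result for histone genes. For the other settings the cause was not tested. The clustered median of 0.60 was 0.75 without probes over 10000 and 0.43 to 0.72 with 1 sample left out. The H3 median of 1.04 was 0.55 with the deposited table, the H1 median of 0.29 was 0.040 without a detection filter and 0.66 with a detection p under 0.01, and the H2A median of 0.06 was 0.27 without probes over 10000. The variant median of -0.19 was -0.12 with the mean of probes, -0.071 with every detected probe, -0.11 with the deposited table and -0.31 to -0.17 with 1 sample left out. The 2 histone genes 2-fold apart between AFF204#21 and R1 became 1 without background correction and 1 with the deposited table. Reversed were the clustered H1 median (-0.084 with every detected probe), the H2A median (-0.00068 without AFF204#21, range -0.00068 to 0.13), H2aj (0.060) and H2ac18 (-0.022) with the mean of probes, and H1f2 without 2i-RFP- (0.0052) or R1 (0.073), range -0.24 to 0.073. Of 403 values for the named genes over these settings, 4 turned, which are the H2aj, H2ac18 and H1f2 values just given. All others kept their direction.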

Other observations

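Several variant and H3 genes were read by probes that did not move together. The second probe of H2az1 read 12.93 in both 2i-derived samples, 13.32 in AFF204#21 and 14.55 in R1, so that R1 stood apart, while the probe used for the gene read 14.33 and 14.24 against 14.39 and 14.49. The dimmest probe of H2aj read 6.74 and 6.96 in 2i-RFP+ and 2i-RFP-, 7.41 in AFF204#21 and 4.53 in R1, where it was not detected. The dimmer probe of H3c14 read 7.23 and 7.11 against 6.05 and 6.19, higher in the 2i-derived samples, and the bright probe read 12.07 and 12.20 against 12.82 and 12.40, lower in them. The dimmer probe of H3c10 read 7.12 and 7.31 against 6.01 and 6.56. Of the genes with 2 or more detected probes, all had the same sign for 13 of 17 clustered and 3 of 6 variant genes. R1 is the 129 line, and whether strain differences lie under these probes was not tested.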
